A study of Mus musculus with 2 samples.

Results

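Complement is a cascade of blood proteins and cell surface receptors, and the genes described here are its components and regulators, chosen as a list of 37 gene symbols. Probes carrying 31 of these symbols, 1 probe each, were read on the arrays, out of 19318 named genes in all. C1s, C1s1, C3, C7, Cfd and Cfhr2 were not analysed here. Transcript levels were measured in livers taken at 24 weeks of age, with a single-colour array for each of the 2 genotypes. The control carried Twist2-Cre alone, and the second genotype, Twist2-Cre/A20fl/fl (here CKO), carried the same Cre driver with floxed alleles of A20. Both livers therefore carry this Cre driver, which is known to act in mesenchymal lineages. How many animals contributed to each RNA is not given. A20, encoded by Tnfaip3, is an enzyme that edits ubiquitin chains and restrains NF-kB signalling.

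Complement is started by antibody and C1q (the classical pathway), by lectins that bind sugars on microbes (the lectin pathway) or by spontaneous turnover of C3 (the alternative pathway). All 3 converge on the cleavage of C3 and C5 and end in the membrane attack complex, a pore built from C5b, C6, C7, C8 and C9. Hepatocytes secrete most of the circulating components, while C1q, properdin and ficolin A come mainly from macrophages and other myeloid cells. Soluble and membrane-bound regulators keep the cascade from damaging host cells.

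With 1 array per genotype there was no replicate, no test and no error across animals, so the number of arrays sets the limit of precision. Each ratio is the log2 of the CKO level over the control level after normalization with an offset of 50, which shrinks the differences of dim genes. Deposited intensities (arbitrary linear units) stand beside them as control and then CKO, and levels of different probes are not compared with each other. Genes were above background on both arrays in 14143 cases, 29 of them members of the list. Probes of the same gene differed by 0.12 in ratio (SD, 1140 genes with at least 2 probes), and the spread of ratios among genes of similar level ran from 0.03 in the dimmest of 20 level classes to 0.21, both guides to size only. Hepatocyte markers were all above background, 12 of 12, with a median ratio of 0.02. Tnfaip3 had deposited intensities of 41 and 38, a log2 ratio of -0.07. The part of the transcript its probe reads is not known, so this value checks nothing.

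Most complement genes were higher in the CKO liver, led by the C1q chains. Of the 29 members with signal over background on both arrays, 21 were higher and 8 lower, with a median ratio of 0.30 and a range from -0.13 to 1.60. Over all 14143 genes the median was -0.02, with 42.2% higher and 57.7% lower. At the size used to call a gene, 2-fold, 5 members were higher: C1qa, C1qb, C1qc, the properdin gene Cfp and the terminal component C8a. The share of all genes called higher by that rule was 0.636%. That share includes dim genes, whose differences the offset shrinks, whereas 27 of the 29 members were no dimmer than the median gene. No member was 2-fold lower, against 0.0778% of all genes. C8a lay at the line itself (1.004), and the nearest member outside it was C6 (0.86). At 1.5-fold the members called higher were 7, with C6 and C8b added, against 1.7% of all genes, and none was called lower (0.417% of all genes). In the deposited intensities 7 members were at least 2-fold higher, the 5 named with C6 and the receptor gene C3ar1, against 3.69% of all genes, and 0 were lower (0.997%). Plain subtraction of the blank spots' mean called the same 7 members higher, against 3.05% of all genes, and 0 lower (0.594%). The deposited values are themselves close to such a subtraction, so this is not a separate check. Against the local background column, 13 of the 29 members changed sign. Of the 5 only C1qc, whose share of local background differed widely between the arrays, stayed past 2-fold.

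**Figure D1:**
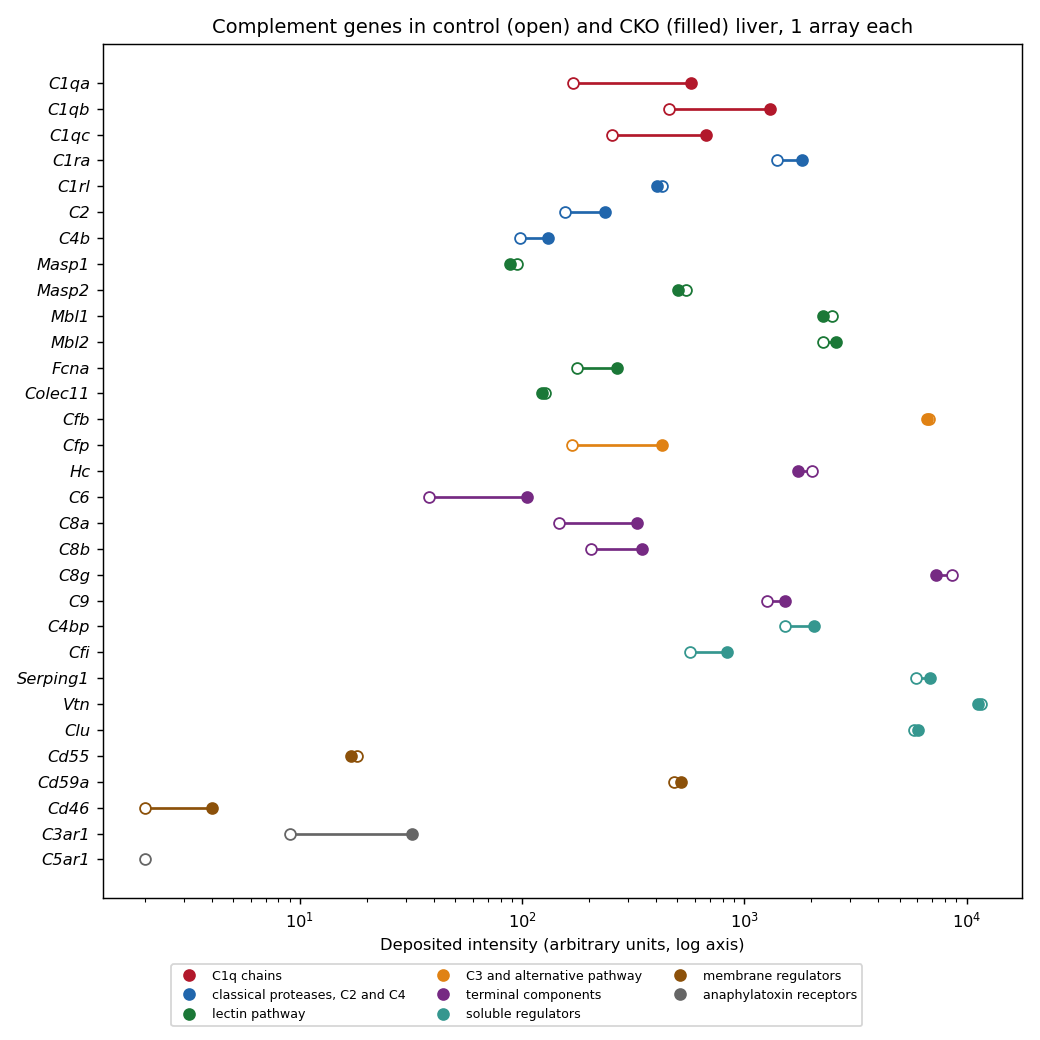
Deposited intensity (arbitrary units, log axis) of each of the 31 complement genes in control liver (open circles) and CKO liver (filled circles), 1 array each, coloured by role; the value table lists no CKO value for C5ar1. The 3 C1q genes, Cfp, C6, C8a and C3ar1 show the widest gaps among genes above background on both arrays, while the pairs for Cfb, Colec11, C1rl, Clu and Vtn nearly coincide.

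**Figure D2:**
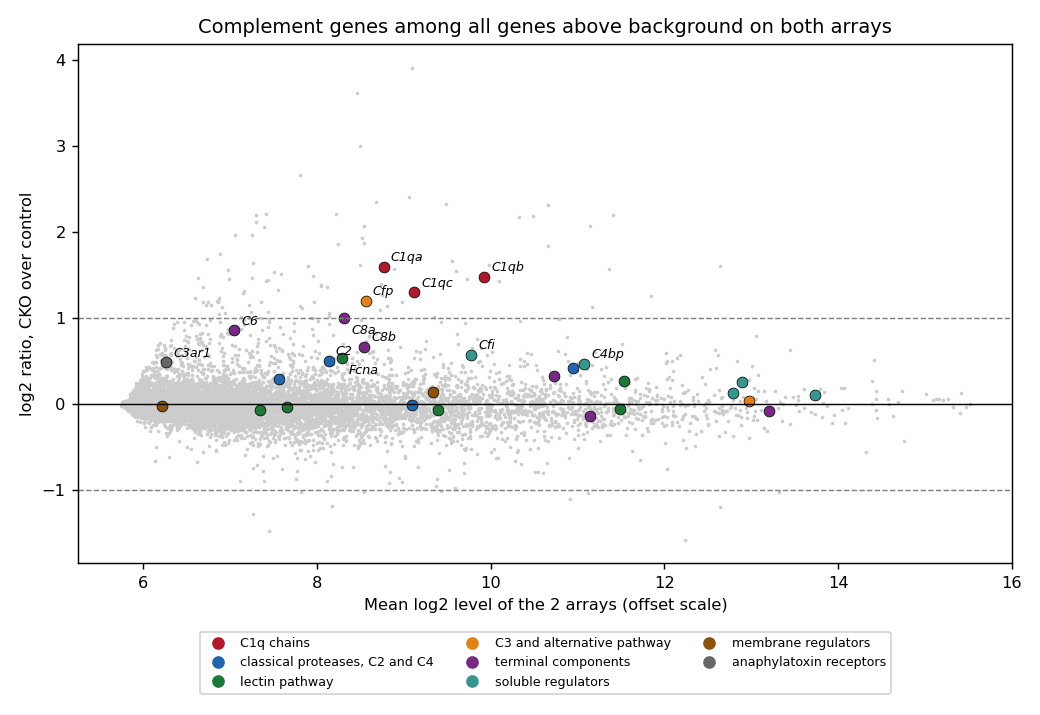
log2 ratio of CKO over control against the mean log2 level of the 2 arrays for all 14143 genes above background on both arrays (grey) and the 29 complement genes among them (coloured by role); dashed lines mark 2-fold. C1qa, C1qb, C1qc and Cfp lie above the upper line, C8a on it, and no complement gene lies near the lower one.

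Promoter sequences are shown for the members past 2-fold that were found in the RefSeq table. C8b is shown beside its neighbour C8a because both were higher, as the neighbouring C1q genes were. The 3 C1q genes lie side by side on chromosome 4 in the order C1qb, C1qc, C1qa, with 0 protein-coding genes between them, and C8b and C8a are neighbours elsewhere on the same chromosome. Each sequence runs 5′ to 3′ from 250 bases before to 50 bases after the gene's start, from RefSeq with build GRCm38.p6. Capitals mark matches, on either strand, to GAGGAA (the core bound by PU.1, a myeloid ETS factor), TTGCNNAA (C/EBP), TTCNNNGAA (STAT), GTTAAT (part of the HNF1 element), CAAAGTCCA (HNF4), the interferon response element or the NF-kB consensus. The windows are chr4:136886151-136886450 (minus strand) for C1qb, chr4:136892865-136893164 (minus) for C1qc, chrX:20931506-20931805 (minus) for Cfp, chr4:104876349-104876648 (minus) for C8a and chr4:104766067-104766366 (plus) for C8b.
C1qb: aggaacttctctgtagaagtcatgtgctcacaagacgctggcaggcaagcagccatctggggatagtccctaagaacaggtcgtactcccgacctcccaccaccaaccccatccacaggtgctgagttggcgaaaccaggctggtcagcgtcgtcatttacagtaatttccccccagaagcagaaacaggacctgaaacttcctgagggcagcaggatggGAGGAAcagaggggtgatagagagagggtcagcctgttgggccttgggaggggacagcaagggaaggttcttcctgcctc
C1qc: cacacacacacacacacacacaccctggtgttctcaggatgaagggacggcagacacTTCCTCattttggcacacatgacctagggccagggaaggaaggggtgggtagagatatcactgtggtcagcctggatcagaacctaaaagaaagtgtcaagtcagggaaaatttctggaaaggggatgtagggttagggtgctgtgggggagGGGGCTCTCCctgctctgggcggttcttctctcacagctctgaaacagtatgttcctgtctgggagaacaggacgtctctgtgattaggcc
Cfp: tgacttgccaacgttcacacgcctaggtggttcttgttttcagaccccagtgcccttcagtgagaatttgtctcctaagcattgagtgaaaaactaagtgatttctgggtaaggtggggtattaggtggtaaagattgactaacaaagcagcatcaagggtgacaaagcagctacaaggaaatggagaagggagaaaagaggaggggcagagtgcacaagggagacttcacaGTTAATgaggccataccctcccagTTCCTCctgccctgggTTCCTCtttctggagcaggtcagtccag
C8a: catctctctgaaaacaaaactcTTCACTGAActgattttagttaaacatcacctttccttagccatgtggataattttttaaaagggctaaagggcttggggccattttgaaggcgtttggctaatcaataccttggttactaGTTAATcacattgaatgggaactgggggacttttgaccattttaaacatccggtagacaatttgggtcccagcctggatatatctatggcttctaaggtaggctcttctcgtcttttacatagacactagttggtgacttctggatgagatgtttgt
C8b: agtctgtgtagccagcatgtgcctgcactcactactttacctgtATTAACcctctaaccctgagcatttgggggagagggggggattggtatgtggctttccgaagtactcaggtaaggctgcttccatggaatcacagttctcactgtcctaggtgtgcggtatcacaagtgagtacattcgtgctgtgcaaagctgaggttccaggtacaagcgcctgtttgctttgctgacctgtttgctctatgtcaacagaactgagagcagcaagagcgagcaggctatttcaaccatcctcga

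The letters GAGGAA stood in all of the C1qb, C1qc and Cfp windows and in neither C8 window. The C1qb match began 30 bases before the start, the C1qc match 193 before, and Cfp held a pair of matches from bases 7 and 23 after its start. Among the 30 windows of listed genes 6 held GAGGAA, including those of C1ra, Cd59a and Fcna. Of all 32851 promoter windows of 300 bases, 28.3% held GAGGAA, so its presence is common. GTTAAT stood in the Cfp, C8a and C8b windows and in 7.1% of all windows. C8a also held TTCNNNGAA (8.3% of all windows), and C1qc held the NF-kB consensus (8.46%), beginning 41 bases before its start. The C8g and C6 windows held none of the 7 motifs. These are matches of letters and say nothing about binding in these livers. No match overlapped another in the windows printed.

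C1q is the recognition molecule of the classical pathway, assembled from A, B and C chains, and all 3 chain genes were higher in the CKO liver. C1qa, the A chain, had deposited intensities of 169 and 578. C1qb, the B chain, had 456 and 1300, and C1qc, the C chain, had 254 and 673. Each chain was thus at least 2.65-fold brighter on the CKO array in the deposited values. On the offset scale the ratios were 1.60 for C1qa (3.03-fold), 1.48 for C1qb (2.79-fold) and 1.30 for C1qc (2.47-fold), where genes at their levels had spreads of 0.18, 0.21 and 0.21. Their ranks among the 14143 genes, from the highest ratio down, were 34, 42 and 57. Against the local background column, an alternative that takes away much of a bright spot's own signal, C1qa (0.75) and C1qb (0.83) were below 2-fold while C1qc (1.41) was not. That column took 72.1% (control) and 34.9% (CKO) of the C1qc signal, but 71.2% and 65.8% for C1qa and 71.6% and 65.3% for C1qb.

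Markers of macrophages, the cells known as the main source of C1q in liver, were higher on the same array. All 11 macrophage and Kupffer cell markers above background on both arrays were higher, with a median ratio of 0.69 and a range from 0.14 to 3.91, and 2 were past 2-fold. That median was 0.90 in the deposited values. With the local background column it was 0.18. The deposited intensities of the 12 listed markers summed to 1454 and 4507, or to 1380 and 2800 (2.03-fold) without Marco, which alone went from 74 to 1707. The summed C1q intensities were 879 and 2551, 2.90-fold. Such sums are led by the brightest probes, which for the markers without Marco were Clec4f and Cd5l (344 and 1051). Among the defining markers, Clec4f had 461 and 813, Timd4 23 and 65, Cd68 61 and 127 and Csf1r 75 and 97. Adgre1 was not above background in the control (CKO intensity 5). Its bound of 1.06-fold higher in CKO is too near 1 to show a difference. In whole tissue, more cells of a type and more RNA per cell cannot be told apart, and the part of these markers in the C1q values was not tested.

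Downstream of C1q, the classical proteases and their substrates showed smaller differences. Of the 4 measured, 3 were higher and 1 was level, with a median ratio of 0.36 and, on the offset scale, no gene past 1.5-fold. C1ra, the protease that C1q activates first, had deposited intensities of 1409 and 1823, a ratio of 0.42. C2, whose cleaved form is the catalytic part of the classical C3 convertase, had 156 and 236, a ratio of 0.50 and the highest of this group, and was 1.51-fold higher in the deposited values. C4b, which supplies the other part of that convertase, had 98 and 131 (0.30). Its near copy C4a, a gene whose transcripts a probe may share, had 64 and 88 (0.29). C1rl, the C1r-like protease gene next to C1ra, had 427 and 405 (-0.01). Of C1ra and C1rl only C1ra was thus on the higher side. C1s2, a gene outside the list in the same run of neighbouring genes on chromosome 6, was higher too (0.60). But against the local background column C1ra (-0.69), C1s2 (-0.70), C4b (-0.10) and C1rl (0.33) had the opposite sign.

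Most genes of the lectin pathway lay near equality. Of 6 genes 2 were higher and 4 slightly lower, with a median ratio of -0.04, and against the local background column all 4 of these were higher and Mbl2, one of the 2, was lower (-0.52). The mannose-binding lectin gene Mbl1 had deposited intensities of 2480 and 2258 (-0.06), and Mbl2 had 2267 and 2586 (0.27). The proteases that lectins activate were close on both arrays, with 95 and 88 for Masp1 (-0.06) and 545 and 502 for Masp2 (-0.07). Colec11, a collectin, had 127 and 123 (-0.03), with a sign that turned under median scaling (0.01). Fcna, which encodes ficolin A and is known to be made by macrophages, had a larger ratio than these 5 on the offset scale. Its intensities were 176 and 268, a ratio of 0.54.

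Of the alternative pathway, Cfp and Cfb were measured, and they differed. Cfp encodes properdin, which stabilises the alternative C3 convertase and is made by myeloid cells. Its deposited intensities were 167 and 428, a ratio of 1.20 (2.30-fold), and it ranked 63 of the 14143 genes. Cfb encodes factor B, the protease of that convertase, and hepatocytes are its main source. It had 6795 and 6672, a ratio of 0.04 that was -0.03 in the deposited values. Cfp was below 2-fold against the local background column (0.02). C2, the neighbour of Cfb with 0 protein-coding genes between them on chromosome 17, was on the higher side, as given above. With 2 genes measured, a median for the pathway (0.62) describes neither.

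**Figure D3:**
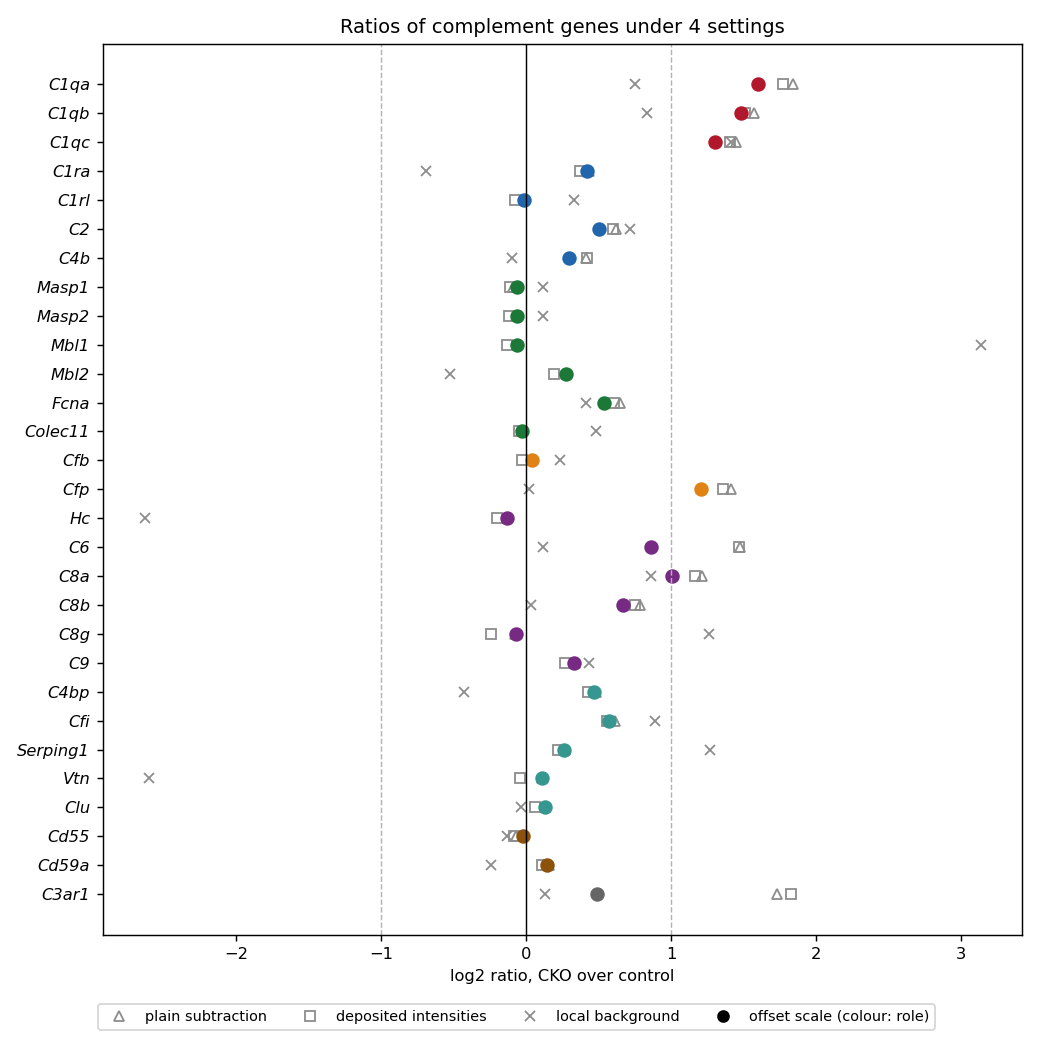
log2 ratio of CKO over control for the 29 complement genes above background on both arrays: on the offset scale (filled circles, coloured by role as in the plot of levels), with plain subtraction of the blank mean (triangles), in the deposited intensities (squares) and against the local background column (crosses); dashed lines mark 2-fold. Circles, triangles and squares lie close for most genes and apart for C6 and C3ar1, while crosses scatter from -2.63 for Hc to 3.14 for Mbl1.

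The terminal components divided among themselves. C8a, C6 and C8b had the largest ratios, C9 a smaller one, and Hc and C8g were slightly lower, with a median of 0.50 over the 6. C8 is made of alpha, beta and gamma chains. C8a, the alpha chain, had deposited intensities of 146 and 328, a ratio of 1.004 (2.005-fold), and C8b, the beta chain, had 205 and 345 (0.67). C8g, the gamma chain, a lipocalin encoded on another chromosome, had 8611 and 7282 (-0.07). The alpha and beta chain genes were thus higher and the gamma chain was not, and spreads at their levels were 0.18 to 0.19. C6, which joins C5b to begin the pore, had 38 and 105, a ratio of 0.86 on the offset scale and 2.76-fold in the deposited values. C9, which polymerises to form the pore wall, had 1266 and 1522 (0.33). Hc, the mouse name for C5, had 2008 and 1749 (-0.13), the lowest ratio of all 29 members on the offset scale. Against the local background column C8a was at 0.86, C8b at 0.03 and C6 at 0.11, while C8g was at 1.26.

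All 5 measured soluble regulators were higher by less than 1.5-fold on the offset scale, with a median ratio of 0.26, though Vtn was lower in the deposited values and C4bp, Clu and Vtn against the local background column. Cfi, factor I, which cuts C3b and C4b, had deposited intensities of 570 and 838, a ratio of 0.57. C4bp, the C4b-binding protein and a cofactor of factor I, had 1530 and 2061 (0.47). Serping1, the C1 inhibitor, had 5916 and 6881 (0.26). Clu, clusterin, and Vtn, vitronectin, both of which block pore assembly, were close to equal. Clu had 5824 and 6071 (0.13). Vtn had 11575 and 11265, a ratio of 0.11 on the offset scale and -0.04 in the deposited values.

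The membrane regulators and the anaphylatoxin receptors gave signal close to background, apart from Cd59a. Cd59a, which blocks the pore on cell surfaces, had deposited intensities of 481 and 520, a ratio of 0.15. Cd55, decay-accelerating factor, had 18 and 17 (-0.02). Cd46, a cofactor of factor I, was above background on the CKO array only (2 and 4). Its bound of 1.04-fold higher there is too near 1 to show a difference. C3ar1, the receptor for C3a, had 9 and 32, a ratio of 0.49 on the offset scale beside 3.56-fold in the deposited values. C5ar1, the receptor for C5a, was above background on the control array only, with an intensity of 2 there and none listed for CKO. It was at least 1.0003-fold lower there, a bound too near 1 to show a difference. The weak signal limits what can be read from both receptors, Cd55 and Cd46.

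Genes of the pathway outside the list divided evenly. Of 27 such genes 23 were on the array, 18 above background on both arrays, 9 of these higher and 9 lower, with a median ratio of 0.01. On the offset scale the 1 past 2-fold was Vsig4, the complement receptor of Kupffer cells that binds C3b and iC3b, with deposited intensities of 123 and 291 (1.02). Itgb2, the beta chain shared by complement receptors 3 and 4, had 16 and 71 (0.93). Itgax, the alpha chain of complement receptor 4, had 4 and 28 (0.57). C1s2, a copy of the C1s protease gene, had 222 and 351 (0.60). In the deposited values Itgb2 (4.44-fold) and Itgax (7.0-fold) were past 2-fold as well, from dim signals. Against the local background column Itgb2 stayed higher (0.66), while Vsig4 (-0.10), Itgax (-0.05) and C1s2 (-0.70) had the opposite sign.

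On the offset scale the classical, terminal and soluble regulator groups, made mainly by hepatocytes, had medians above that of hepatocyte markers. The lectin pathway, of which Fcna alone is given above as macrophage-made, had a median below it (-0.04), and Cfb was at 0.04. The medians of the classical and soluble regulator groups were below that of acute phase genes. Hepatocyte markers had a median ratio of 0.02 over 12 genes, with 6 higher and 5 lower. Acute phase genes, which hepatocytes secrete in response to IL-6 and IL-1, had a median of 0.52 over 13 genes, 10 of them higher. The classical proteases with C2 and C4, the terminal components and the soluble regulators had medians of 0.36, 0.50 and 0.26. The terminal median was above the acute phase one in the deposited values (0.51 against 0.41) and with plain subtraction (0.56 against 0.52), so these stand in no order. Against the local background column the acute phase median was 1.19, the hepatocyte median -0.12 and the lectin pathway median 0.26. Genes induced by interferon-gamma, a cytokine known to act on several complement genes, had a median of 1.43 over 9, all higher, with a median of 1.84 in the deposited values. With the local background column it was 0.74. Of the acute phase genes, Fgb (0.00) was near equality as Cfb was, and Itih4 (-0.16) was slightly lower. Saa1 (2.20) and Orm2 (1.85) were higher. The part of these responses in the complement values was not tested.

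**Figure D4:**
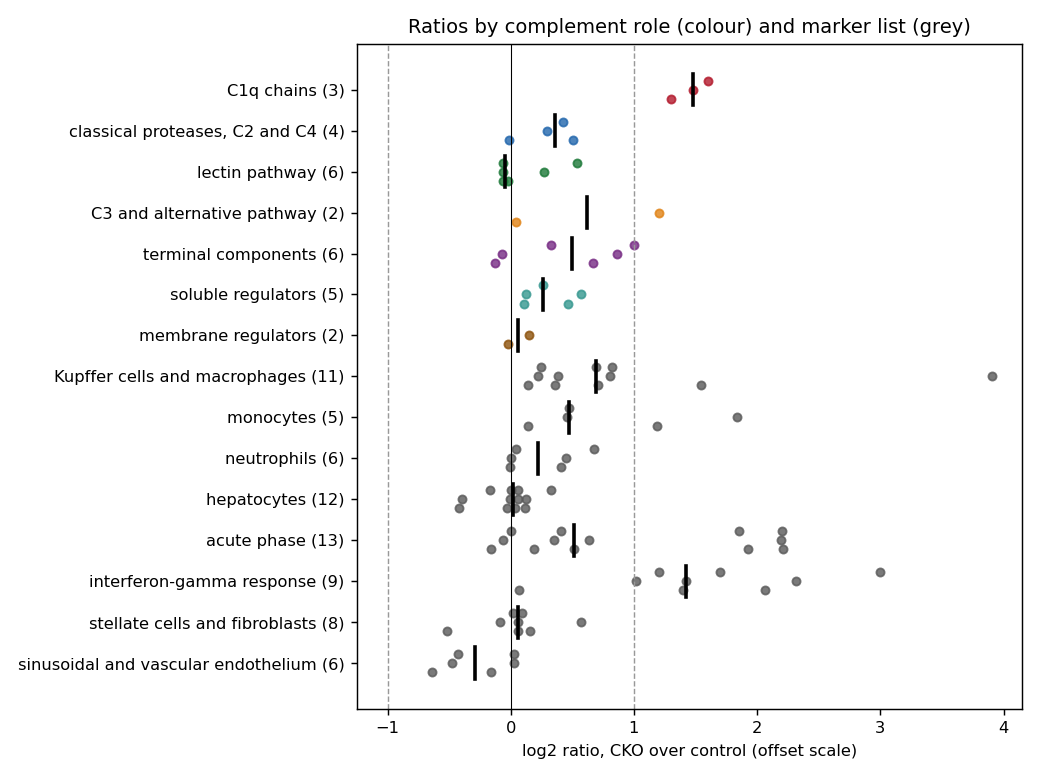
log2 ratio of CKO over control on the offset scale for each gene above background on both arrays, by complement role (coloured) and by marker or response list (grey), with the number of genes in brackets and the median as a black bar; dashed lines mark 2-fold. The C1q chains lie between 1.30 and 1.60, the lectin pathway and hepatocyte markers centre near 0, and the interferon-gamma genes centre on 1.43.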

How the data were processed

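Total liver RNA from 1 control and 1 CKO sample was amplified, coupled to Cy5 and fragmented per the labels' protocols. Per the file headers, the scanner files give spot and local background medians, as intensity at 635 nm, joined over 3 gains. The deposited value table holds intensity on a linear scale. How it was made is not stated, but tested on the values it is the spot minus the blank spots' trimmed mean, times 0.859 (control) or 0.825 (CKO), within 1.53 units. Spots were corrected with normexp against the mean of the 384 blank spots (limma 3.58.1, R 4.3.3; offset 50), control spots and 4 flagged spots were left out, and quantile normalization followed, with levels as log2 values. The local background column served as an alternative only.

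Signal counted as above background past the blank mean plus 2 SD (69.5 control, 72.2 CKO), and 17314 and 17280 probes did. For Cd46, C5ar1 and Adgre1, which passed on a single array, a bound is given. Probes were named from the platform annotation, where 20690 of 23473 have 1 symbol, 0 several and 2783 none. Every member on the array is reported, and from the other pathway genes the 4 largest ratios. With 1 array per genotype no test was made. The normalization was tested on simulated arrays with noise of spots and background only, which say nothing about differences between animals. Members, gene lists and motifs were chosen with earlier results of these data known.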

Additional observations from a re-analysis of the deposited data

How the results depend on the processing

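Under median scaling and cyclic loess the medians of the complement roles stayed within the size of probe-to-probe error (0.12). The counts past 2-fold were unchanged under both, at 5 higher and 0 lower. Taking the brightest probe of a gene could change nothing, because each measured member has 1 probe. The 5 members at least 2-fold higher became 6 with an offset of 16 and 7 with plain subtraction or in the deposited table. Only C3ar1 stands behind the median of the anaphylatoxin receptors (0.49), which was 0.89 with an offset of 16, 1.73 with plain subtraction, 1.83 in the deposited table and 0.22 with no filter on dim genes. Its deposited intensities were 9 and 32.

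Against the local background column every role moved: all members 0.13, C1q chains 0.83, classical proteases 0.12, lectin pathway 0.26, alternative pathway 0.13, terminal components 0.27, soluble regulators -0.038, membrane regulators -0.19 and receptors 0.13. There 4 members were 2-fold higher (C1qc, C8g, Mbl1 and Serping1) and 2 lower (Hc and Vtn). C1qa was at 0.75, C1qb at 0.83 and Cfp at 0.02. Over spots brighter than 1000 that column took a median share of 75.2% (control) and 58.2% (CKO) of the spot's own signal, and for Mbl1 104.8% and 78.9%. The sign of 13 of the 29 members turned there, of 2 under cyclic loess (Cd55 and Colec11), of 2 in the deposited table (Cfb and Vtn) and of 1 under median scaling (Colec11). With the list limited to genes no dimmer than the median gene, no receptor was left, so that setting gave no value for them. No paired analysis was possible because each genotype has 1 array and no test.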

Other observations

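Cell types that were not part of the comparisons above gave mixed values, and their size differed between scales. Monocyte markers were higher in 5 of 5 genes (median ratio 0.48, deposited 1.51, with the local background column 0.34), led by lysozyme Lyz2 (1.84, deposited intensity 695 and 2437). Neutrophil markers had a median of 0.22 over 6 genes, with 0.64 for the deposited intensities and 0.05 with the local background column. Sinusoidal and vascular endothelial markers had a median of -0.29 over 6 genes (-0.49 deposited), bile duct markers one of -0.19 over 4 (-0.65 deposited), and stellate cell and fibroblast markers one of 0.06 over 8 (0.33 deposited). T and B cell markers had a median of 0.06 over 5 genes on the offset scale and 0.39 for the deposited intensities, where the listed markers summed to 72 and 141. Adipocyte markers were at -0.02 over 5 genes (-0.19 deposited) and exocrine pancreas markers at -0.05 over 2 (0.20 deposited).

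Promoter windows were found for 28 of the 37 listed genes, 30 windows in all. GTTAAT, part of the HNF1 element, stood in windows of 10 genes (C1ra, C4bp, C7, C8a, C8b, Cd55, Cfhr2, Cfp, Hc and Vtn). TTCNNNGAA stood in those of 7 genes, TTGCNNAA in 5 (C1ra, C1rl, C1s1, C3 and C9) and CAAAGTCCA in 0. Of all windows, 7.1% held GTTAAT, 8.3% TTCNNNGAA, 10.8% TTGCNNAA and 0.475% CAAAGTCCA. The interferon response element stood in 4 genes (Cd46, Cd59a, Colec11 and Vtn) and in 3.44% of all windows. The NF-kB consensus stood in 1 of the 30 windows, that of C1qc, and in 8.46% of all windows. Genes with GTTAAT included both C8a, which was higher, and Hc, which was slightly lower, both on the offset scale and for the deposited intensities.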
